A study of Mus musculus with 41 samples.

Results

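Escalating and nonescalating cocaine intake were compared about 1 month after self-administration, in ribosome-bound RNA from the dorsal striatum, purified from the neurons marked by Drd1, the gene of the dopamine D1 receptor. The libraries were taken by their labels as immunopurified, as collected about 1 month after the last sessions, and as belonging to either cocaine group. This gave 15 of the 41 libraries of the series, 4 of the escalating group and 11 of the nonescalating group. The 5 saline libraries of the same time entered the fit and are given beside the results. The mice were adults of the line Drd1-TRAP CP73, which carries EGFP-tagged ribosomal protein L10a under Drd1 regulatory sequences, on a strain labelled FVB/N-Swiss Webster crossed to C57BL/6. Escalating mice, nonescalating mice and saline controls all carried this transgene and all had intravenous self-administration, of cocaine in the first 2 groups and of saline in the controls, in a long-access study. Of the nonescalating libraries, 6 carry the word extended in the description of the self-administration and 5 do not. The 4 escalating libraries lack the word and the 5 saline libraries have it. The labels give no amount of cocaine taken, no rule by which a mouse was called escalating, and no animal identity or sex, so the p-values below measure only the spread between these libraries.

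Long access to intravenous cocaine leads some rodents to raise their intake over days while others hold it level, and the comparison of the 2 kinds of animal at equal time after the drug asks what differs in their neurons. D1 medium spiny neurons are the output cells of the direct pathway of the striatum. They couple dopamine through a stimulatory G protein to cyclic AMP and protein kinase A, and together with glutamate input to the ERK branch of MAP kinase signalling. These pathways switch on activity-regulated genes such as Fos, Egr1, Arc and the Nr4a family within minutes to hours, and ERK in turn induces its own inhibitors of the Dusp, Spry and Spred families. In TRAP, a purification of tagged ribosomes with an antibody against EGFP, the RNA sequenced is that held on the ribosomes of these cells, with some carry-over from others. In such bulk samples fewer cells of a type and less RNA per cell cannot be told apart.

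The defining transcripts of D1 neurons were abundant in both cocaine groups, with overlapping levels. Drd1 had 649, 523, 673 and 564 CPM in the 4 escalating libraries, against a lowest of 437, a median of 564 and a highest of 698 in the nonescalating libraries. CPM are counts per 1000000 counts, with library sizes scaled by TMM. The groups overlapped throughout, with a log2 fold change of 0.06 ± 0.11 (escalating over nonescalating; ± gives the standard error of every fold change) and a 95% interval of -0.16 to 0.28. The substance P precursor gene Tac1 averaged 238 ± 41.9 CPM in escalating and 240 ± 75.0 CPM in nonescalating libraries (SD, n = 4 and 11). The dynorphin precursor gene Pdyn averaged 227 ± 29.9 CPM in escalating and 235 ± 33.5 CPM in nonescalating libraries. Rpl10a, whose counts include those of the transgene, averaged 332 ± 28.2 CPM in escalating and 293 ± 46.8 CPM in nonescalating libraries. The summed level of 12 D1 markers lay between 2764 and 3043 CPM in the escalating libraries and between 2528 and 3521 CPM in the nonescalating libraries.

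The escalating libraries held 10264342 to 14467697 counts on named genes, and the nonescalating libraries 10757942 to 23925655. Detected genes numbered 15596 to 16856 in escalating and 13370 to 18057 in nonescalating libraries. Total counts, detected genes and 4 shares of reads or counts were compared between the groups with two-sided exact permutation tests, of which the lowest unadjusted p was 0.408. The escalating libraries were the more uniform group. Over 10470 genes with a mean of at least 4 CPM, the median SD of log2 CPM was 0.23 in the escalating and 0.42 in the nonescalating libraries. In the nonescalating group it was 0.27 for the libraries without the word extended and 0.48 for those with it. On the first 3 principal components the escalating libraries lay between -24.2 and 23.8, whereas nonescalating libraries labelled extended lay at 81.6 on component 1 (replicate 6), 116.8 on component 2 (replicate 2) and 86.0 on component 3 (replicate 4). The count of genes in the main comparison was therefore also taken without these 3 libraries.

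**Figure D1:**
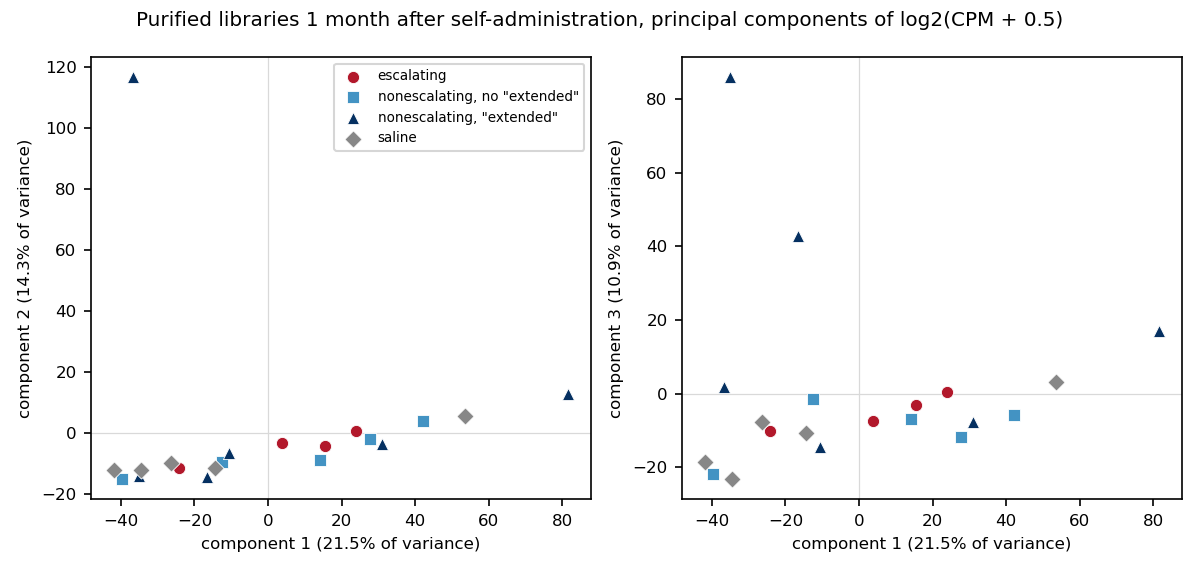
Each point is 1 of the 20 purified libraries at 1 month, placed by principal components 1 and 2 (left) or 1 and 3 (right) of log2(CPM + 0.5), which hold 21.5%, 14.3% and 10.9% of the variance. The 4 escalating libraries lie among the others, and 3 nonescalating libraries labelled extended lie apart at 81.6, 116.8 and 86.0 on 1 component each.

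No gene passed the test of escalating against nonescalating libraries. Of 14488 genes tested, 0 (0%) had an adjusted p under 0.05 in edgeR's quasi-likelihood test with Benjamini-Hochberg adjustment, and the lowest adjusted p was 0.9998. At an unadjusted p under 0.05 there were 177 genes (1.22%), fewer than the 5% that evenly spread p-values would give. Of these, 69 (0.476%) were on the higher side and 108 (0.745%) on the lower side in escalating libraries. In DESeq2 0 passed and 256 had an unadjusted p below that value, and in limma with voom sample weights 0 passed and 783 did. Without the 3 nonescalating libraries that lie apart, 0 passed in edgeR and 269 had an unadjusted p under 0.05. Without escalating replicate 4 it called 0, with 84.

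The data bound the size of a difference better for abundant genes than for scarce ones. The 95% interval of the fold change lay wholly within 2-fold in either direction for 8608 of the 14488 genes (59.4%). This held for 93.6% of genes with 16 to 64 CPM and for 98.7% of those with 64 to 256 CPM. It held for 54.5% of genes with 4 to 16 CPM and for 2.52% of those with 1 to 4 CPM. The median log2 fold change over all genes tested was -0.04, and 42.6% of them had a positive one, which is the background for the gene groups below. The median was lower for scarce genes, at -0.22 under 1 CPM and -0.14 at 1 to 4 CPM, against -0.05 at 4 to 16 CPM. Every tested gene named in what follows had an adjusted p of 0.9998 in the comparison of escalating with nonescalating libraries, so its values are given as a description.

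Activity-regulated genes, which report recent synaptic input to a neuron, were mostly on the higher side in escalating libraries, and none passed the test. Of 20 such genes tested, 14 had a positive log2 fold change, with a list median of 0.27 against -0.04 over all genes. Of the 20, 3 had an unadjusted p under 0.05 in the positive direction and 0 in the negative one. Over all genes tested the shares were 0.476% and 0.745%. The list was written with earlier results of these data known. The list median depended on 1 library. Without escalating replicate 4 it was 0.00, with 10 of 20 positive and 0 at an unadjusted p under 0.05 on the higher side, against 1 on the lower side.

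Nr4a1, which encodes an orphan nuclear receptor induced by cyclic AMP and calcium (chromosome 15, 101254269 to 101274795, plus strand, GRCm38), had 105, 68.1, 181 and 201 CPM in escalating libraries. It had a lowest of 12.1, a median of 67.3 and a highest of 155 CPM in nonescalating libraries. Escalating replicates 3 and 4 lay above every nonescalating library, and 6 of 11 nonescalating libraries lay below every escalating one. The log2 fold change was 0.90 ± 0.43 (unadjusted p = 0.0453 in edgeR). Its relative Nr4a3 (chromosome 4, 48045153 to 48086447, plus strand) had 13.8, 6.69, 11.4 and 11.7 CPM in escalating libraries, and 2.13, 5.63 and 11.1 CPM as the lowest, median and highest of the nonescalating libraries. All but 1 of the escalating libraries lay above the whole nonescalating range, with a log2 fold change of 0.82 ± 0.36 (unadjusted p = 0.0297). Fosl2, a member of the AP-1 family of transcription factors (chromosome 5, 32135801 to 32157842, plus strand), had 98.5, 61.6, 91.7 and 96.9 CPM in escalating libraries, and 25.6, 58.3 and 99.7 CPM as the lowest, median and highest in nonescalating ones. Its log2 fold change was 0.52 ± 0.25 (unadjusted p = 0.0472), and the groups overlapped.

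The better known members of the list were less separated. Egr1, a zinc finger factor downstream of ERK, had 1267, 1028, 1163 and 1402 CPM in escalating libraries, and 524, 829 and 1320 CPM as the lowest, median and highest in nonescalating libraries, a log2 fold change of 0.39 ± 0.20 (unadjusted p = 0.0671). The nonescalating libraries ran across a wide range, and 6 of 11 lay below every escalating library. Fos had 2.52, 1.02, 2.68 and 13.5 CPM in escalating libraries, and 0, 2.23 and 7.37 CPM as the lowest, median and highest in nonescalating ones. Npas4, a neuron-specific factor that responds to calcium entry, had 3.36, 5.0, 4.33 and 37.2 CPM in escalating libraries, and 0.978, 11.8 and 30.8 CPM as the lowest, median and highest in nonescalating ones. Escalating replicate 4 was the highest cocaine library for both genes, and the other 3 escalating libraries lay within the nonescalating range. Without that library the log2 fold change of Fos was -0.37 in place of 0.87, and that of Npas4 was -1.83 in place of -0.27. Fosb, whose stable truncated product accumulates under repeated cocaine, averaged 36.6 ± 9.64 CPM in escalating and 29.9 ± 10 CPM in nonescalating libraries (SD, n = 4 and 11). Arc, which encodes a postsynaptic protein that removes AMPA receptors, averaged 68.6 ± 42.2 CPM in escalating and 54.5 ± 30.9 CPM in nonescalating libraries. Bdnf, the gene of a secreted growth factor, was near the detection limit at 0.382 ± 0.499 CPM in escalating and 1.12 ± 2.03 CPM in nonescalating libraries. The members on the lower side were Bdnf (-1.51 ± 1.52), Ier2 (-1.14 ± 1.25), Nr4a2 (-0.70 ± 1.08), Jun (-0.55 ± 0.37), Npas4 (-0.27 ± 0.67) and Jund (-0.07 ± 0.20).

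**Figure D2:**
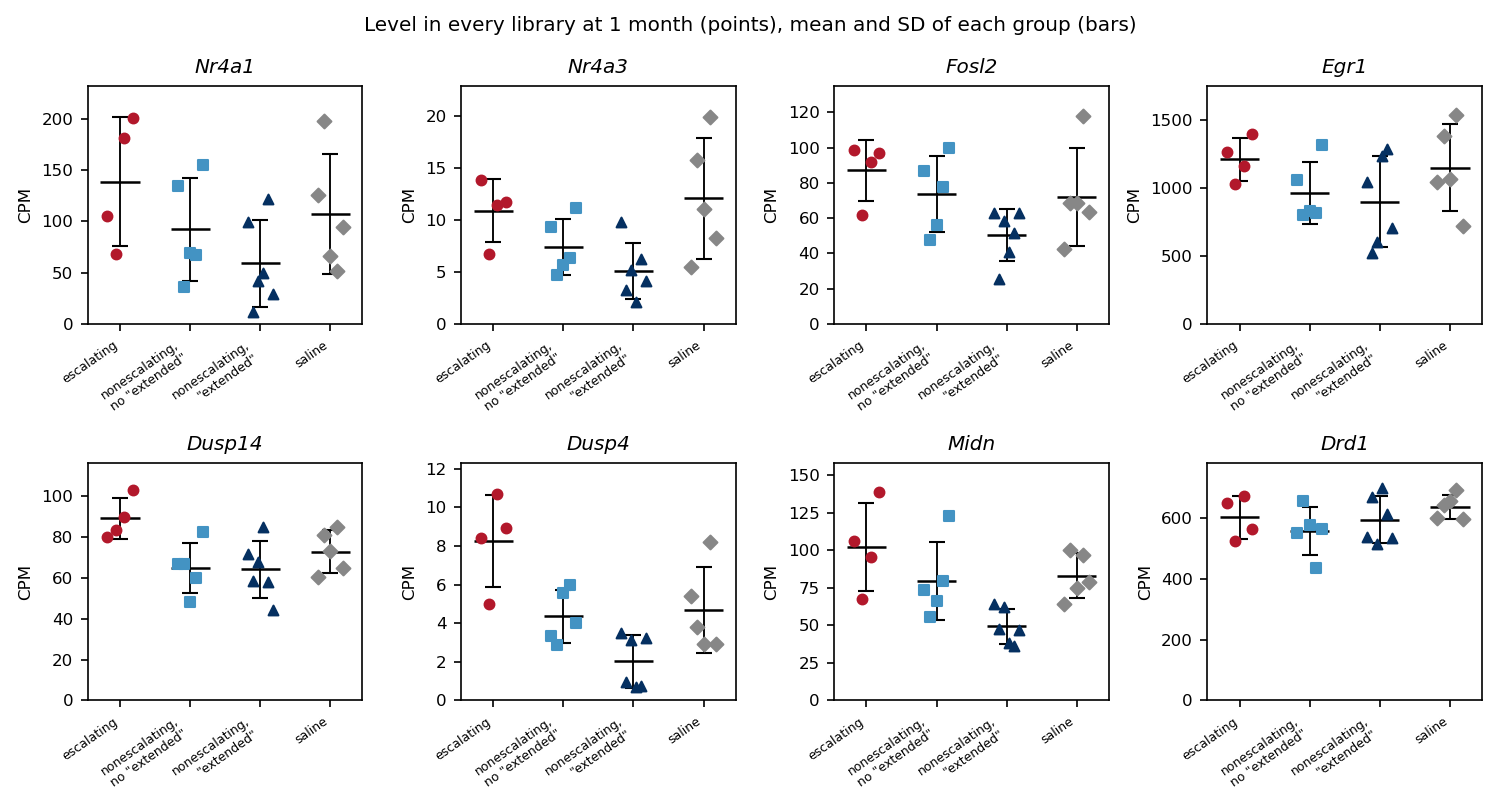
CPM of 8 genes in every library at 1 month (points), with the mean and SD of each group (bars); the nonescalating libraries are drawn apart by the word extended in their labels. Dusp4 had 5.0 to 10.7 CPM in escalating libraries against 0.679 to 5.98 CPM in nonescalating libraries, ranges that overlapped at their ends, and the Drd1 ranges overlapped widely.

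The genes of inhibitors of ERK signalling were also mostly on the higher side, and none passed the test. Of 15 genes of this kind tested, 13 had a positive log2 fold change, with a list median of 0.14, and 2 had an unadjusted p under 0.05 in the positive direction, against 0 in the negative one. Over all genes tested, 0.476% were under that p on the higher side and 0.745% on the lower side. This list too was written with earlier results of these data known. Without escalating replicate 4 the list median was 0.12 and 12 of 15 were positive. Dusp1 belongs to both this list and the activity list.

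Dusp14, a MAP kinase phosphatase gene (chromosome 11, 84048041 to 84069261, minus strand), had 80.1, 83.7, 90.0 and 103 CPM in escalating libraries. It had 44.3, 66.6 and 85.0 CPM as the lowest, median and highest in nonescalating libraries. Of these 11 libraries, 9 lay below every escalating one and 2 lay inside the escalating range. The log2 fold change was 0.47 ± 0.15 (95% interval 0.17 to 0.77, unadjusted p = 0.00387 in edgeR), and it stayed between 0.39 and 0.52 when each library was left out in turn. Dusp4, which encodes a nuclear phosphatase that inactivates ERK (chromosome 8, 34807297 to 34819894, plus strand), had 8.39, 5.0, 10.7 and 8.95 CPM in escalating libraries, and 0.679, 3.23 and 5.98 CPM as the lowest, median and highest in nonescalating ones. Only escalating replicate 2 lay inside the nonescalating range. The log2 fold change was 1.42 ± 0.45 (95% interval 0.49 to 2.34, unadjusted p = 0.00425). Spry4 and Dusp6, further inhibitors of this pathway, had log2 fold changes of 0.69 ± 0.43 and 0.42 ± 0.28. The members on the lower side were Spry1 at -0.64 ± 0.72 and Dusp8 at -0.14 ± 0.15.

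Because Nr4a1 and Nr4a3 are textbook targets of the cyclic AMP responsive factor CREB, their promoters were searched for its binding motif. Their relative Nr4a2, on the lower side at -0.70 ± 1.08, was also among the activity genes that held the motif. Sequences are from the RefSeq table of GRCm38.p6 and run 5′ to 3′ on the gene's strand, from 250 bases before to 50 bases after the start. Capitals mark the short CREB motif TGACG on either strand, which reads CGTCA on the opposite one. The stretches shown are chr15:101266596-101266895 (plus strand) for Nr4a1, chr4:48045055-48045354 (plus strand) for Nr4a3 and, as the gene of the ERK inhibitor list with the lowest p, chr11:84068308-84068607 (minus strand) for Dusp14. Those of Nr4a1 and Dusp14 lie wholly inside the gene spans given above, so the starts used for them are not the outermost ones.
Nr4a1: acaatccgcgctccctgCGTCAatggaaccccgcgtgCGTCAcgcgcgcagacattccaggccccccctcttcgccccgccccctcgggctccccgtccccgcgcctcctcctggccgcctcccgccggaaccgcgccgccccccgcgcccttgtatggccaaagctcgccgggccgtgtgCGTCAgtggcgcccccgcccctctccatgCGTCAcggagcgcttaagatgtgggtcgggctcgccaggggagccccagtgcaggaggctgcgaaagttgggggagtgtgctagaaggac
Nr4a3: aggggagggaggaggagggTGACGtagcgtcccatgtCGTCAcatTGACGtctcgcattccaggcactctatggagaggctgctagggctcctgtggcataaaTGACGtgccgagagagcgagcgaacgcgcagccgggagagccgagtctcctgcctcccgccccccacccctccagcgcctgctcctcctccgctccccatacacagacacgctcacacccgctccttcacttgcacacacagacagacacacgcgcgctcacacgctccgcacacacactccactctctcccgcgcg
Dusp14: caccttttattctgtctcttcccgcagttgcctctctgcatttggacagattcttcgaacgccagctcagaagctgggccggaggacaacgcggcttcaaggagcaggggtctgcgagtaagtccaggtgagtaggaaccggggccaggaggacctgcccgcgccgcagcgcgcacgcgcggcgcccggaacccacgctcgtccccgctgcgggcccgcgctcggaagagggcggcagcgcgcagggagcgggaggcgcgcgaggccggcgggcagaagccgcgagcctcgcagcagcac
The Nr4a1 and Nr4a3 promoters held 4 such motifs each, the Dusp14 promoter 0, and that of Fosl2 0. No full palindrome TGACGTCA, which contains the motif on both strands, was found in these 4. Counted by promoter, 15 of the 27 promoters of activity genes (55.6%) held the motif, as did 4 of 13 (30.8%) of ERK inhibitor genes, 30.2% of the 13249 promoters of tested genes and 20.8% of all 32851 promoters of the table, of which 1.79% held the full palindrome. Counted by gene, where a gene with several promoters counts once, 13 of 16 activity genes (81.2%), 4 of 13 ERK inhibitor genes and 35.2% of the 10311 tested genes with a promoter held it. Of the genes tested in each list, 16 of 20 activity genes and 13 of 15 ERK inhibitor genes had an entry, and Dusp4 had none. The search began from known CREB targets, so these shares describe the promoters and do not bear on the difference between the groups.

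The 12 genes with the lowest unadjusted p on the higher side included Dusp14 and Dusp4, and the others were either spread over several escalating libraries or set by 1. Midn, which encodes the nuclear protein midnolin (chromosome 10, 80148272 to 80158368, plus strand), had 106, 67.8, 95.7 and 139 CPM in escalating libraries, and 36.3, 62.3 and 123 CPM as the lowest, median and highest in nonescalating ones. Of the nonescalating libraries 8 of 11 lay below every escalating one, and the log2 fold change was 0.69 ± 0.23 (unadjusted p = 0.00538). Vti1b, a SNARE gene of endosomal fusion that overlaps Arg2 on the opposite strand, had 99.8, 84.1, 111 and 107 CPM in escalating libraries, and 67.6, 77.9 and 89.6 CPM as the lowest, median and highest in nonescalating ones. Its log2 fold change was 0.35 ± 0.12 (unadjusted p = 0.00777). Ost4, which encodes a small subunit of oligosaccharyltransferase and overlaps Agbl5 on the opposite strand, had a log2 fold change of 0.49 ± 0.16. Fem1c, a substrate receptor gene of a ubiquitin ligase, had one of 0.42 ± 0.15. No source used here gives the strand setting of the counting, so reads of overlapping genes cannot be told apart.

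Another 5 genes of the higher side rested on 1 escalating library each. Bambi, which encodes a decoy receptor for TGF-beta family ligands, had 0.653, 0.0847, 0.961 and 10.6 CPM in escalating libraries, and 0, 0.434 and 0.873 CPM as the lowest, median and highest in nonescalating ones. The kainate receptor subunit gene Grik1 had 0.466, 0, 0.893 and 16.7 CPM in escalating libraries, against at most 1.07 CPM in nonescalating ones. Both values were set by replicate 4, without which their log2 fold changes were 0.46 in place of 2.87 for Bambi and 0.66 in place of 3.94 for Grik1. Rab8a, a small GTPase gene of vesicle transport, and Smyd2, a protein lysine methyltransferase gene, reached 22.3 CPM each in replicate 4, against at most 8.21 and 9.61 CPM in the other escalating libraries. Without it their log2 fold changes were 0.41 in place of 0.97 for Rab8a and 0.42 in place of 0.94 for Smyd2. Tmem120a, a membrane protein gene, had 13.5 CPM in escalating replicate 2 and at most 2.10 CPM in the other 3. Without replicate 2 its log2 fold change was 0.49 in place of 1.91. Replicate 4 also had the fewest detected genes of its group, 15596, against at least 16821 in the other escalating libraries. Its part in these values was not tested beyond leaving it out.

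**Figure D3:**
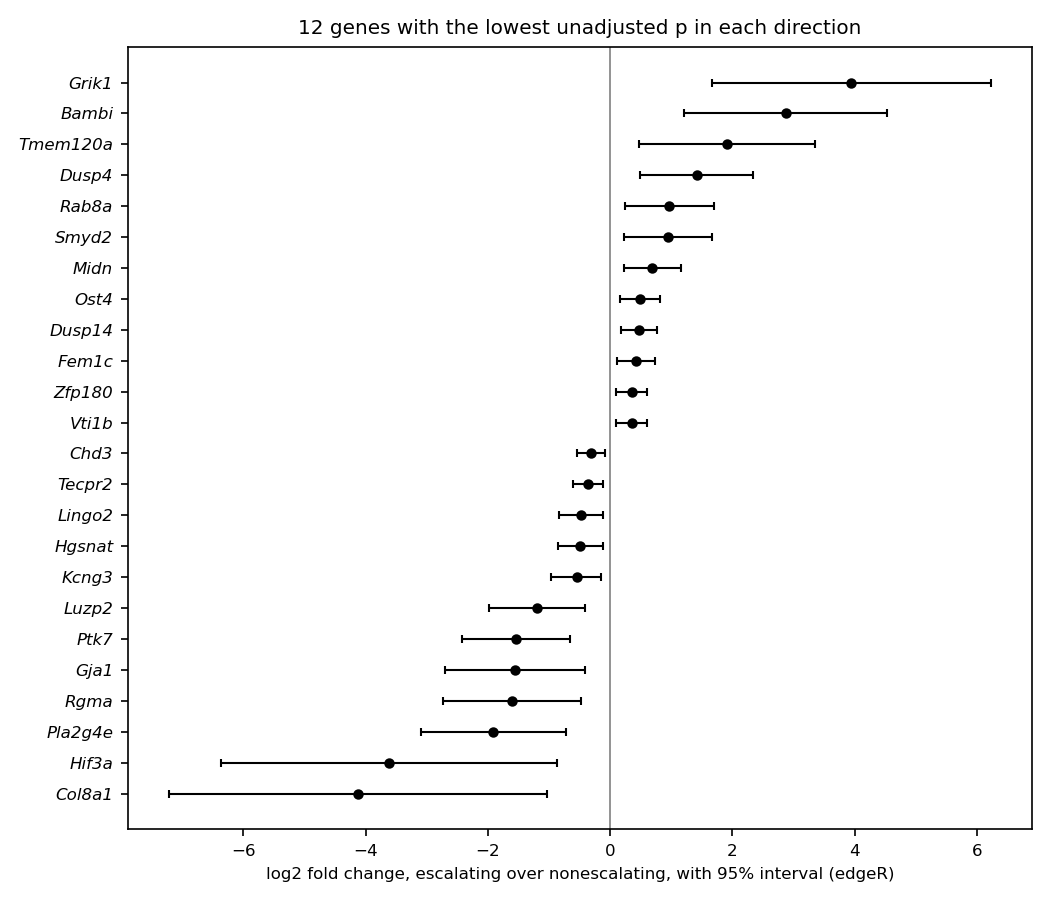
Log2 fold change of escalating over nonescalating libraries with its 95% interval for the 12 genes of each direction with the lowest unadjusted p in edgeR, none of which passed the adjusted threshold. Genes measured at high counts, such as Chd3 at -0.32, have narrow intervals, and genes near the detection limit, such as Hif3a at -3.62, have wide ones.

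On the lower side the gene with the lowest p was Ptk7, a receptor-like pseudokinase gene of planar cell polarity signalling (chromosome 17, 46564471 to 46629504, minus strand). It had 2.98, 1.86, 2.33 and 1.69 CPM in escalating libraries, and 2.72, 5.57 and 14.4 CPM as the lowest, median and highest in nonescalating ones. Of the nonescalating libraries 10 of 11 lay above every escalating one, and the log2 fold change was -1.54 ± 0.43 (95% interval -2.42 to -0.65, unadjusted p = 0.00145). Pla2g4e, a cytosolic phospholipase A2 gene that makes precursors of endocannabinoid-type lipids, had 1.12, 1.36, 2.40 and 0.323 CPM in escalating libraries, and 2.10, 4.01 and 11.8 CPM as the lowest, median and highest in nonescalating ones. The log2 fold change was -1.91 ± 0.57 (unadjusted p = 0.00274), with 10 of 11 nonescalating libraries above every escalating one. Luzp2, a leucine zipper protein gene, had one of -1.19 ± 0.38 with the same number above. Rgma, which encodes a repulsive guidance molecule, had 4.10, 4.07, 3.71 and 1.53 CPM in escalating libraries, and 3.89, 6.30 and 41.8 CPM as the lowest, median and highest in nonescalating ones. The highest value was that of replicate 2 of the libraries labelled extended, which lies apart on component 2. Ptk7 and Rgma overlap noncoding genes on the opposite strand, Gm26904 and A730056A06Rik.

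More abundant genes on the lower side differed by smaller factors. Chd3, which encodes an ATPase of the NuRD chromatin remodelling complex (chromosome 11, 69343273 to 69369406, minus strand), had 391, 344, 389 and 335 CPM in escalating libraries, and 311, 461 and 533 CPM as the lowest, median and highest in nonescalating ones. Of the nonescalating libraries 10 of 11 lay above every escalating one and 1 below every one. The log2 fold change was -0.32 ± 0.11 (unadjusted p = 0.00956). Kcng3, a modifier subunit gene of voltage-gated potassium channels, averaged 28.9 ± 5.41 CPM in escalating and 42.4 ± 10.5 CPM in nonescalating libraries (SD, n = 4 and 11). Lingo2, a leucine-rich repeat adhesion gene counted among the D1 markers, averaged 35.6 ± 4.32 CPM in escalating and 49.7 ± 11.9 CPM in nonescalating libraries. Hgsnat, a lysosomal enzyme gene of heparan sulfate breakdown, averaged 21.5 ± 4.24 CPM in escalating and 30.2 ± 5.30 CPM in nonescalating libraries. Gja1, the connexin gene of astrocyte gap junctions, Col8a1, a collagen gene, and Hif3a, a hypoxia-responsive factor gene, complete the 12 with Tecpr2, described next, and had escalating means of 1.68, 0.0233 and 0.0990 CPM against nonescalating means of 4.97, 0.523 and 1.34 CPM. Col8a1 had a count above 0 in 1 escalating library only.

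Few genes separated the 2 groups without overlap. Every escalating library lay above every nonescalating library for 4 of 14488 genes (0.0276%) and below for 2 (0.0138%). Above were the zinc finger genes Zfp180 and Zfp40, the kinase gene Trp53rk and the protocadherin gene Pcdhb5. Zfp180 had 124, 114, 107 and 105 CPM in escalating libraries, and 55.0, 90.9 and 104 CPM as the lowest, median and highest in nonescalating ones, with a log2 fold change of 0.35 ± 0.12 (unadjusted p = 0.00880). Trp53rk had 5.49 to 7.98 CPM in escalating libraries and 0 to 5.06 CPM in nonescalating ones, and Pcdhb5 had 3.85 to 8.71 CPM in escalating libraries and 0.0889 to 3.76 CPM in nonescalating ones. Zfp40 was nearly touching, with 14.3 CPM as the lowest escalating and 14.1 CPM as the highest nonescalating value. Below were 1500012F01Rik, a noncoding RNA gene, and Tecpr2, an autophagy gene (chromosome 12, 110889264 to 110972394, plus strand). Tecpr2 had 57.2, 58.5, 64.9 and 65.5 CPM in escalating libraries, and 68.3, 73.5 and 93.9 CPM as the lowest, median and highest in nonescalating ones, with a log2 fold change of -0.36 ± 0.12 (unadjusted p = 0.00602). All but Zfp180 and Tecpr2 were named after their values were seen.

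Markers of other cells were on the lower side in escalating libraries in most lists, and no member passed the test. Of 10 markers of D2 neurons, the output cells of the indirect pathway, 9 had a negative log2 fold change, with a median of -0.27. Drd2 itself had 12.9, 10.3, 18.1 and 12.8 CPM in escalating libraries, and 10.5, 16.1 and 39.6 CPM as the lowest, median and highest in nonescalating ones. Its log2 fold change was -0.62 ± 0.30 (unadjusted p = 0.0480), and 6 of 11 nonescalating libraries lay within the escalating range. The enkephalin precursor gene Penk had 137, 105, 110 and 120 CPM in escalating libraries, and 112, 143 and 217 CPM as the lowest, median and highest in nonescalating ones, with a log2 fold change of -0.34 ± 0.17. Sp9, a transcription factor gene of D2 neurons, was the positive member at 0.61 ± 0.42, and 0.04 without escalating replicate 4. The summed level of the 11 D2 markers ranged from 189 to 277 CPM in escalating and from 216 to 378 CPM in nonescalating libraries.

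Of 12 oligodendrocyte markers 11 had a negative log2 fold change (median -0.36), of 13 astrocyte markers 9 (median -0.39), of 13 endothelial and mural markers 13 (median -0.32), and of 11 interneuron markers 8 (median -0.49). Many of these markers, other than the endothelial and mural ones, lay under 4 CPM. There the median over all genes was -0.14 at 1 to 4 CPM and -0.22 under 1 CPM. The summed levels of these lists overlapped between the groups. For oligodendrocytes the sum lay between 147 and 229 CPM in escalating and between 118 and 440 CPM in nonescalating libraries, with medians of 165 CPM in escalating and 197 CPM in nonescalating ones. For astrocytes it lay between 539 and 733 CPM in escalating and between 523 and 1033 CPM in nonescalating libraries, with medians of 603 CPM in escalating and 741 CPM in nonescalating ones. For endothelial and mural cells it lay between 101 and 694 CPM in escalating and between 41.7 and 2005 CPM in nonescalating libraries, the highest being that of replicate 6 of the libraries labelled extended. The median endothelial and mural sum was higher in escalating libraries, at 460 CPM, than in nonescalating libraries, at 306 CPM, although all 13 members had a negative log2 fold change. Microglial markers summed to at most 6.78 CPM in escalating and 16.8 CPM in nonescalating libraries, and the defining markers Tmem119 and Trem2 had a count of 0 in all 4 escalating libraries. The most negative members of the oligodendrocyte and endothelial lists were the myelin gene Mobp, at -1.0 ± 0.75 on the log2 scale, and the endothelial gene Vwf, at -1.09 ± 0.86, and both moved with single libraries. Mobp gave -0.5 without nonescalating replicate 1 labelled extended and -1.93 without escalating replicate 3, and Vwf gave -0.67 without nonescalating replicate 6 labelled extended. The most negative astrocyte marker was the gap junction gene Gja1, at -1.56 ± 0.55 (unadjusted p = 0.00962), with means of 1.68 CPM in escalating and 4.97 CPM in nonescalating libraries. Of abundant members, the bicarbonate transporter gene Slc4a4 of astrocytes lay at -0.08 ± 0.13, the glutamate transporter gene Slc1a2 at -0.48 ± 0.33 and the endothelial receptor gene Flt1 at -0.28 ± 0.74. Positive members were the myelin gene Mag (0.11 ± 0.93) and the astrocyte genes Gfap (0.25 ± 0.99), Aqp4 (0.08 ± 0.61), Gjb6 (0.11 ± 1.13) and Sox9 (0.03 ± 0.47). The part of these cells in the gene differences given above was not tested.

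Markers of D1 and of all medium spiny neurons, and most genes of dopamine and cyclic AMP signalling, had narrow intervals and small differences. Of 12 D1 markers 5 had a positive log2 fold change (median -0.02) and all 12 had an interval within 2-fold. Of 20 markers shared by all medium spiny neurons 11 were positive (median 0.03), again with all 20 intervals within 2-fold. For the dopamine and cyclic AMP signalling genes 9 of 25 were positive, with a median of -0.04 and 23 intervals within 2-fold. Adcy1, a calcium-stimulated adenylyl cyclase gene, was the member with the lowest p, at -0.29 ± 0.14. Neuropeptide and opioid genes were measured less precisely. Of 21 such genes 7 were positive (median -0.05, from -0.86 to 0.58), with 7 intervals within 2-fold and a median SE of 0.43. Cartpt, the precursor gene of a peptide first described as regulated by cocaine, averaged 2.44 ± 1.75 CPM in escalating and 2.24 ± 2.25 CPM in nonescalating libraries (SD, n = 4 and 11).

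Synaptic genes were mostly on the lower side, by small amounts. Of 38 genes of postsynaptic scaffolds and plasticity 10 had a positive log2 fold change (26.3%, against 42.6% of all genes tested), with a median of -0.05, and 35 of the intervals lay within 2-fold. Camk2a, the gene of an abundant postsynaptic kinase, had 2006, 2433, 2258 and 1917 CPM in escalating libraries, and 2001, 2663 and 3916 CPM as the lowest, median and highest in nonescalating ones. The log2 fold change was -0.30 ± 0.13 (unadjusted p = 0.0241). Shank1, a scaffold gene, averaged 151 ± 9.40 CPM in escalating and 218 ± 81.9 CPM in nonescalating libraries (SD, n = 4 and 11), and all escalating libraries lay within the nonescalating range. Of 32 synaptic vesicle genes 7 were positive (21.9%, median -0.06). The vesicle protein gene Syp averaged 635 ± 55.8 CPM in escalating and 769 ± 110 CPM in nonescalating libraries. Among receptors of serotonin, acetylcholine and cannabinoids 10 of 21 were positive (median -0.05), with the lowest p for the nicotinic subunit gene Chrnb2 (-0.40 ± 0.17) and for Dagla (-0.42 ± 0.19), which encodes the enzyme that makes the endocannabinoid 2-AG. Glutamate receptor genes of the AMPA, NMDA and kainate classes were positive in 8 of 26 (median -0.10), potassium channel genes in 14 of 43 (median -0.05), and sodium and calcium channel genes in 12 of 32 (median -0.03). Map1a, a microtubule-associated protein gene of dendrites, had 1882, 1936, 2355 and 1881 CPM in escalating libraries, against 1860, 2406 and 2794 CPM as the lowest, median and highest in nonescalating ones, a log2 fold change of -0.26 ± 0.10. It overlaps Ppip5k1 on the opposite strand, as Chrnb2 does Adar.

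Housekeeping lists were centred near 0. Of 75 oxidative phosphorylation genes 33 were positive (median -0.01), with 74 intervals within 2-fold, and of 77 cytosolic ribosomal protein genes 43 were positive (median 0.02), with 76 intervals within 2-fold. Of 17 heat shock genes 10 were positive (median 0.04). The constitutive chaperone gene Hspa8 averaged 1599 ± 229 CPM in escalating and 1345 ± 147 CPM in nonescalating libraries (SD, n = 4 and 11). The translation initiation gene Eif4g2 averaged 708 CPM in escalating and 608 CPM in nonescalating libraries, a log2 fold change of 0.22 ± 0.10.

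**Figure D4:**
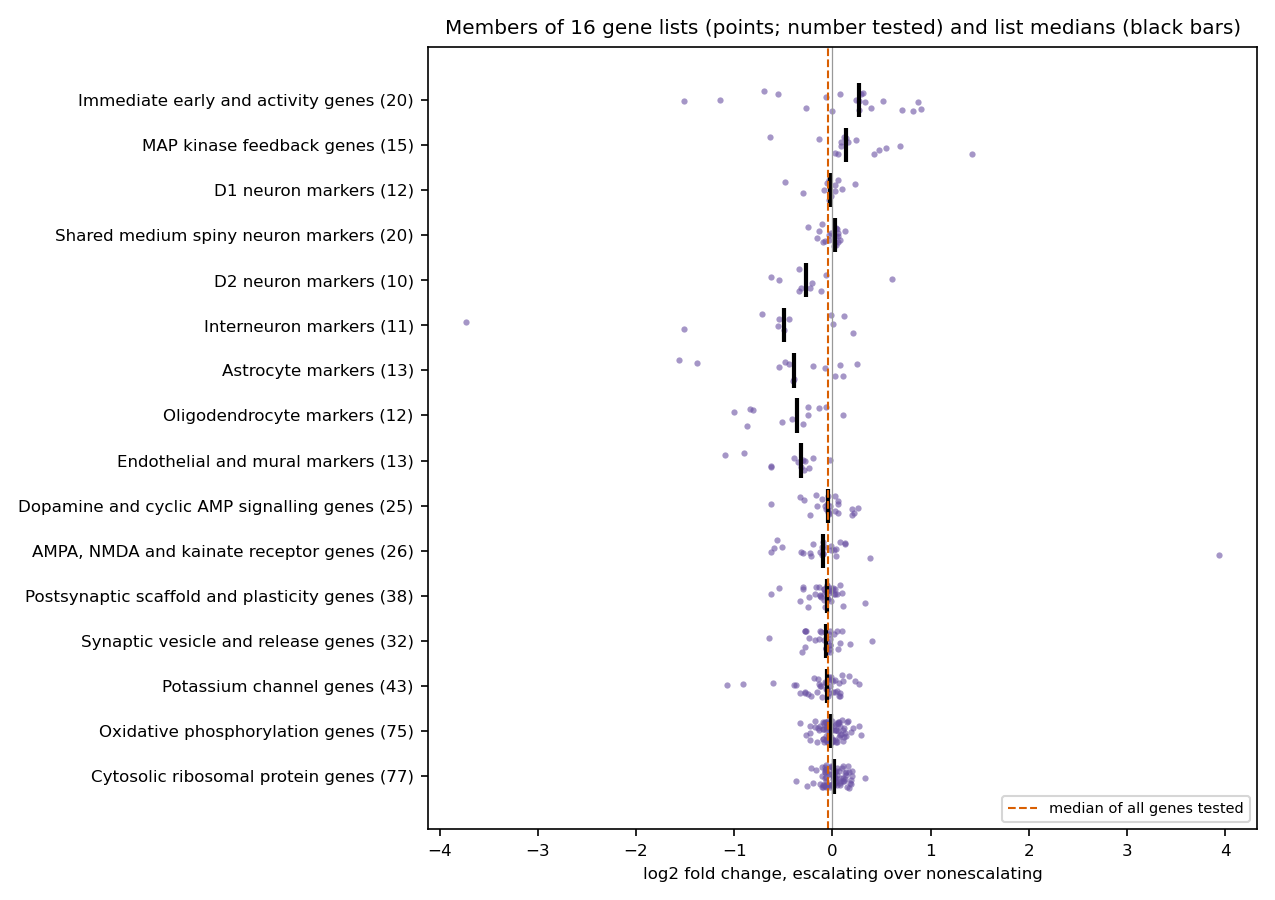
Log2 fold change of escalating over nonescalating libraries for each tested member of 16 gene lists (points, number tested in brackets), with the list median (black bar) and the median of all genes tested (dashed line, -0.04). Activity genes have a median of 0.27 and the interneuron markers one of -0.49, while the lists of abundant neuronal genes cluster close to 0.

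The wording of the labels divided the nonescalating group, and the comparison with escalating libraries was repeated against each set. Against the 5 nonescalating libraries whose labels also lack the word extended, 0 of 14488 genes were called in edgeR (0%), with 85 (0.587%) at an unadjusted p under 0.05, and DESeq2 called 0, with 115. A fit of these 4 and 5 libraries alone, chosen after seeing the data, also called 0 of 13426 genes in edgeR, with 377 at an unadjusted p under 0.05. Against the 6 labelled extended, edgeR called 0 (0%), with 559 (3.86%), and DESeq2 called 0, with 726. Within the nonescalating group, libraries without the word against those with it gave 0 calls in edgeR (0%), with 834 (5.76%) at an unadjusted p under 0.05, and DESeq2 called 1, Tmem121, with 964. These comparisons share libraries. In the label-matched comparison wording does not differ between the groups. In the comparison with libraries labelled extended, wording and intake cannot be told apart.

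For single genes the values against each set were as follows. Midn averaged 102 ± 29.3 CPM in escalating libraries, and the log2 fold change was 0.36 ± 0.23 against libraries without the word and 1.05 ± 0.22 against libraries with it. Dusp4 gave 0.93 ± 0.50 against libraries without the word and 2.01 ± 0.49 against libraries with it. For Dusp14 the values were alike, at 0.46 ± 0.18 against libraries without the word and 0.47 ± 0.17 against libraries with it. Tecpr2 gave -0.39 ± 0.14 and -0.34 ± 0.13 against the same sets. The activity genes had a median of 0.25 against libraries without the word, with 13 of 20 positive, and of 0.28 against libraries with it, with 14 of 20 positive. The members described above for their low p were smaller against libraries without the word. Nr4a1 gave 0.59 against libraries without the word and 1.23 against libraries with it, Nr4a3 0.56 and 1.08, and Fosl2 0.25 and 0.79. Fos was larger against libraries without the word, at 1.14, than against those with it, at 0.68. The ERK inhibitor genes had a median of 0.28 against libraries without the word and of 0.14 against libraries with it. Over all 14488 genes, 7222 were positive against libraries without the word (median 0.00) and 6193 against libraries with it (median -0.06).

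Energy and translation genes took opposite signs against the differently labelled sets. Of 75 oxidative phosphorylation genes, 66 were positive against libraries without the word (median 0.13) and 18 against libraries with it (median -0.13). Of 77 ribosomal protein genes, 65 were positive against libraries without the word (median 0.14) and 31 against libraries with it (median -0.08). The genes with the lowest p for the wording itself, without over with, were Tmem121 (3.18 ± 0.71), the somatostatin receptor gene Sstr5 (5.62 ± 1.27), the CMP-sialic acid transporter gene Slc35a1 (-1.39 ± 0.34), the nuclear noncoding RNA Malat1 (-0.96 ± 0.25), Fra10ac1 (-0.97 ± 0.26) and the chromatin gene Arid4a (-0.60 ± 0.16), each with an adjusted p of 0.8306 in edgeR. Malat1 had 2214, 2168, 2186 and 3195 CPM in escalating libraries, 1312 to 4062 CPM in nonescalating libraries without the word and 3108 to 7634 CPM in those with it. The escalating libraries thus lay inside the range of the nonescalating libraries that share their wording. All but replicate 4 lay below the range of the nonescalating libraries labelled extended. The saline libraries, which also carry the word, had 2202, 2082, 2316, 2806 and 3537 CPM, so the higher Malat1 level was not shared by all libraries with that wording. Tmem121 had 27.8 and 14.9 CPM in 2 of the 5 nonescalating libraries without the word, and at most 2.14 CPM in the other 3.

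**Figure D5:**
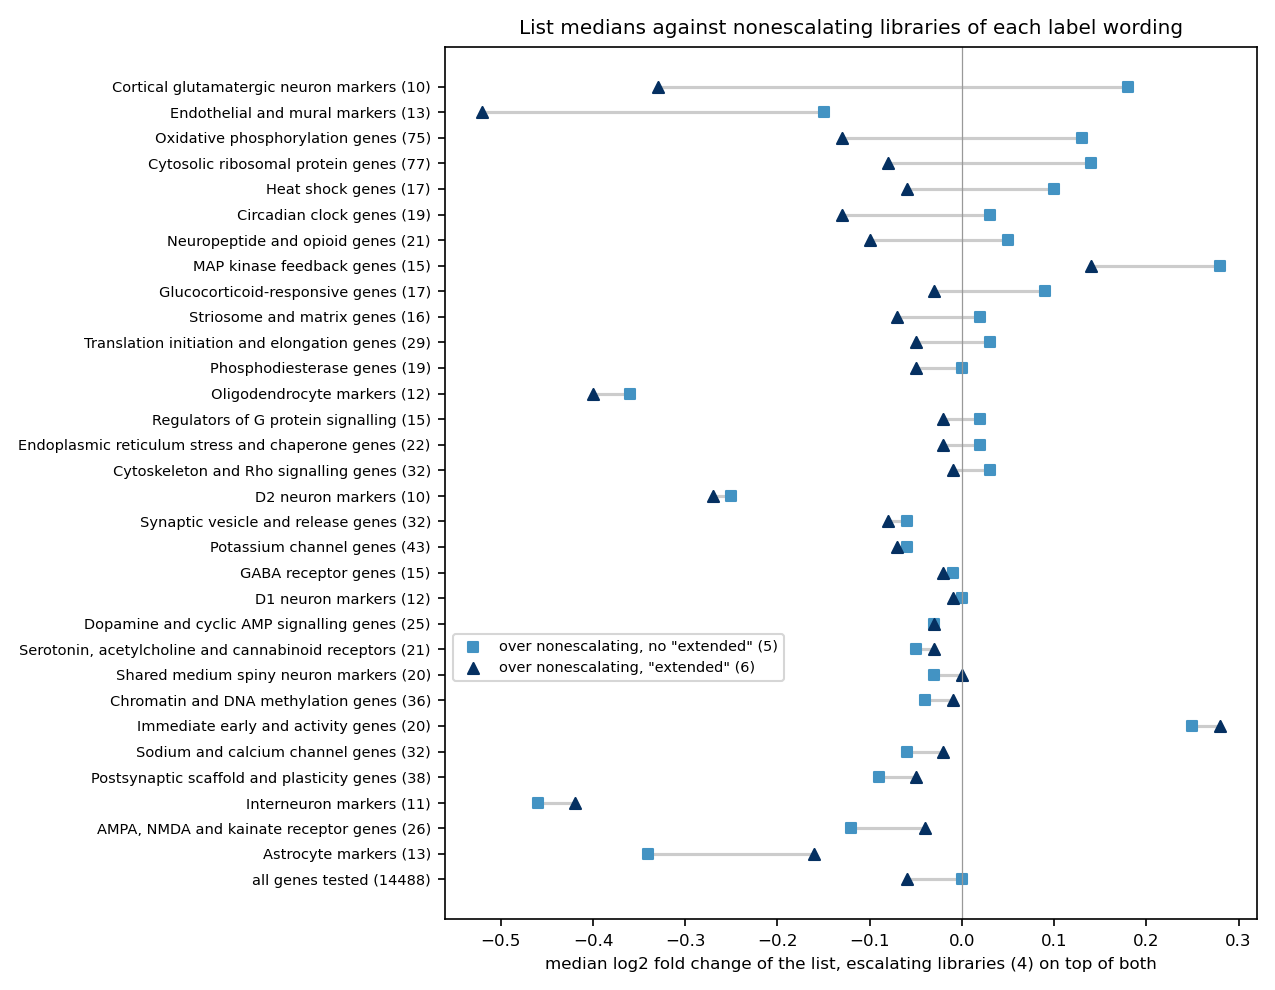
Median log2 fold change of each gene list with at least 10 tested members, for escalating libraries over the 5 nonescalating libraries without the word extended (squares) and over the 6 with it (triangles), joined by a line. Both use the same 4 escalating libraries. Oxidative phosphorylation genes lie at 0.13 and -0.13, and activity genes at 0.25 and 0.28.

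Saline libraries gave a further point of reference for the genes above. Of 14488 genes, edgeR called 0 for escalating against saline libraries, with 87 on the higher and 100 on the lower side at an unadjusted p under 0.05. It called 0 for nonescalating against saline libraries, with 235 on the higher and 287 on the lower side. The comparisons share the saline libraries. All saline libraries carry the word extended and no escalating library does, so between these groups wording and treatment cannot be told apart. The nonescalating libraries mix both wordings. Nr4a1 averaged 139 ± 62.6 CPM in escalating, 74.2 ± 47.1 CPM in nonescalating and 107 ± 58.2 CPM in saline libraries (SD, n = 4, 11 and 5). Against saline the log2 fold change was 0.38 ± 0.51 for escalating and -0.53 ± 0.40 for nonescalating libraries. Nr4a3 gave -0.15 ± 0.42 for escalating and -0.97 ± 0.33 for nonescalating libraries against saline, and Zfp180 gave -0.01 ± 0.15 for escalating and -0.36 ± 0.12 for nonescalating. Vti1b gave -0.08 ± 0.14 for escalating and -0.43 ± 0.11 for nonescalating libraries. In these 3 genes the escalating libraries lay near the saline level and the nonescalating libraries below it, none of it past the adjusted threshold. All 3 were named for being higher in escalating than in nonescalating libraries, so these positions are not independent of that choice. Dusp14 lay on both sides of saline, with 0.29 ± 0.17 for escalating and -0.18 ± 0.14 for nonescalating libraries, as did Dusp4 with 0.83 ± 0.54 for escalating and -0.59 ± 0.43 for nonescalating. As a list the activity genes lay below saline in both groups, with a median log2 fold change of -0.15 for escalating and -0.23 for nonescalating libraries, and the ERK inhibitor genes had a median of 0.09 for escalating and -0.08 for nonescalating ones. The medians over all genes were -0.03 for escalating and 0.01 for nonescalating libraries.

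The same contrast was available 24 h after self-administration, in 5 escalating and 9 nonescalating libraries that the comparison at 1 month does not use. All of these carry the word extended, so for escalating libraries time and wording cannot be told apart. There 2 of 15190 genes (0.0132%) passed in edgeR, while 1074 (7.07%) had an unadjusted p under 0.05. The 2 that passed were Cyb5d1, a cytochrome b5 domain gene that overlaps Naa38 on the opposite strand (3.40 ± 0.60, edgeR adjusted p = 0.0208), and Sap30bp, a transcriptional repressor gene that overlaps Recql5 (2.61 ± 0.50, edgeR adjusted p = 0.0447). Replicate 5 carried both calls. Cyb5d1 had 6.93, 4.98, 1.5, 6.06 and 163 CPM in the escalating libraries at 24 h, against at most 5.47 CPM in the nonescalating libraries, and Sap30bp had 18.9, 17.2, 11.8, 10.1 and 525 CPM in escalating libraries, against at most 32.4 CPM in nonescalating ones. Without escalating replicate 5, edgeR called 0 genes, and the log2 fold changes were 0.49 ± 0.47 for Cyb5d1 (edgeR adjusted p = 0.885) and -0.39 ± 0.28 for Sap30bp (edgeR adjusted p = 0.848). Leaving out each other library in turn gave 0 to 5 calls, and DESeq2 called 0, with 1297 at an unadjusted p under 0.05. At 1 month their log2 fold changes were -0.12 ± 0.43 and -0.04 ± 0.18.

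At 24 h the activity genes had a median log2 fold change of 0.29, with 13 of 20 positive, and the ERK inhibitor genes one of 0.13, with 9 of 15 positive. Of the 14446 genes tested at both times, 6789 were positive at 24 h, with a median of -0.03. Egr1 averaged 1279 ± 297 CPM in escalating and 840 ± 215 CPM in nonescalating libraries at 24 h (SD, n = 5 and 9). There the log2 fold change was 0.61 ± 0.20, with an adjusted p of 0.5811 in edgeR. Fosl2 had 0.60 ± 0.31 at 24 h beside 0.52 ± 0.25 at 1 month, and Dusp14 had 0.30 ± 0.21 beside 0.47 ± 0.15. Dusp4 and Midn had -0.20 ± 0.65 and 0.00 ± 0.33 at 24 h. Oxidative phosphorylation genes had a median of 0.26 at 24 h with 63 of 75 positive, and ribosomal protein genes one of 0.29 with 60 of 77 positive, against medians of -0.01 and 0.02 at 1 month. The 1 month medians pool nonescalating libraries of both wordings, while all 24 h libraries carry the word. At 1 month the medians were 0.13 and 0.14 against nonescalating libraries without the word, and -0.13 and -0.08 against those with it.

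The difference between the times was tested as such in the fit of all 39 purified libraries. No gene passed (0 of 15190, 0%, in edgeR), with 495 (3.26%) at an unadjusted p under 0.05, and DESeq2 called 0, with 574. The genes with the lowest p were Cyb5d1 and Sap30bp again, Il2rg, Ncam2, Stard5 and Fap. Ncam2, a cell adhesion gene of axons, was the abundant member of this set. It averaged 202 ± 18 CPM in escalating and 144 ± 26.9 CPM in nonescalating libraries at 24 h (SD, n = 5 and 9), and 133 ± 25.2 CPM in escalating and 163 ± 36.3 CPM in nonescalating libraries at 1 month (SD, n = 4 and 11). Its log2 fold change was 0.49 ± 0.15 at 24 h and -0.29 ± 0.16 at 1 month, a difference of -0.78 ± 0.23 with an edgeR adjusted p of 0.9999. Stard5, a lipid transfer gene that overlaps Il16 on the opposite strand, had -2.18 ± 0.58 at 24 h and 0.44 ± 0.42 at 1 month. Il2rg, a cytokine receptor gene, and Fap, a fibroblast protease gene, were near the detection limit, with at most 2.24 CPM of Il2rg in escalating and 3.58 CPM in nonescalating libraries at 1 month, and Fap had too few counts to be tested there.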

How the data were processed

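Counts of read pairs per gene were deposited for each library. The authors aligned reads to mm10 with STAR 2.0.0e and counted them with HTSeq, per the submitters' processing notes; for annotation and strand setting no source used here gives a value. The 5 summary lines and 1 row named unknown were removed, leaving 32531 named genes. The 20 purified libraries of 1 month, grouped by their labels, were fitted in edgeR 4.0.16 (R 4.3.3; TMM scaling, filterByExpr, quasi-likelihood test, Benjamini-Hochberg adjustment, threshold 0.05). The 24 h contrast and the difference between times came from 1 fit of the 39 purified libraries. Standard errors were back-calculated as the absolute log2 fold change divided by the square root of the edgeR F statistic. The intervals were built from them, so both are approximate, most of all near the detection limit. Scripts were tested on simulated data. Alternatives were DESeq2 1.42.0, limma 3.58.1, other scalings and filters, a wording covariate, a replicate block and leaving out libraries. Replicate numbers did not pair libraries. At 1 month no 2 libraries of the same group agreed within sampling noise (lowest chi-square per degree of freedom 14.3 over 71 pairs). Pairs across groups were not compared.

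The named genes were the 12 of each direction with the lowest p (unnamed gene models left out), at most 4 per described list, by p, 14 fixed genes, and 6 each with the lowest p for the wording and for the difference between times. Members of some lists were also named for their sign or abundance. The comparison and the gene lists were chosen with earlier results of these data known. Cell type marker lists are described by their ranges, and the planned permutation tests of their levels are not given. Gene positions are from GENCODE on GRCm38.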

Additional observations from a re-analysis of the deposited data

Results flagged for a closer look

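A library's value was set apart where its gap to the nearest other library of its group, divided by the group's range, exceeded Dixon's 95% critical value. This was met by 20 of 140 groups of values examined. Chance gives about 1 in 20 groups for normally spread values, but several genes were named for a low p that 1 library set. Critical values were used for groups of 4 and 5 libraries only, so the 11 nonescalating libraries were not screened as a group. Their high values, such as Rgma at 41.8 CPM in replicate 2 labelled extended, are therefore not listed.

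Among the flagged escalating and saline libraries, escalating replicate 4 was the most frequent. It was the highest of its group for Bambi at 10.6 CPM, Grik1 at 16.7 CPM, Rab8a at 22.3 CPM, Fos at 13.5 CPM, Fosb at 50.9 CPM, Npas4 at 37.2 CPM and Malat1 at 3195 CPM. It was the lowest for Rgma at 1.53 CPM and for detected genes at 15596. Other escalating libraries stood apart for Tmem120a at 13.5 CPM (replicate 2), Col8a1 at 0.0932 CPM (replicate 1), and Map1a at 2355 CPM and Mobp at 27.5 CPM (replicate 3).

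Among saline libraries, replicate 2 was the highest for Tmem120a at 5.26 CPM, Bdnf at 1.98 CPM and Cartpt at 12.5 CPM, and replicate 1 for Mobp at 29.7 CPM. Replicate 5 was the highest for Il2rg at 2.27 CPM, Vwf at 137 CPM and read pairs outside genes at 20.3%.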

How the results depend on the processing

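The comparison of escalating with nonescalating libraries called 0 genes in edgeR under every alternative run, DESeq2 and limma included. At an unadjusted p under 0.05 it gave 177 genes as reported, 802 with no filter on low counts, 93 with all purified libraries in 1 fit, 64 with the wording as a covariate, 146 with the replicate block, and 84 to 246 when each library was left out in turn. Among the other counts, DESeq2 called 1 gene for the wording within the nonescalating group, where edgeR called 0. At 24 h edgeR called 2 genes as reported, 0 to 5 with each library left out in turn and 0 without escalating replicate 5, and DESeq2 called 0. Without the word extended in both groups, the escalating and nonescalating libraries alone gave 377 genes at an unadjusted p under 0.05, against 85 as reported. Same-numbered libraries correlated between -0.53 and 0.21 in 8 pairs, 1 of them over 0.1, so the replicate block joins libraries by number only.

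The genes below reversed sign under an alternative. When each library was left out in turn, the log2 fold change ranged from -0.37 to 1.2 for Fos, -0.13 to 0.61 for Arc, -1.83 to 0.03 for Npas4, -0.10 to 0.02 for Pdyn, -0.09 to 0.11 for Tac1, -0.39 to 0.42 for Cartpt and -0.36 to 0.03 for Cyb5d1. With the wording as a covariate it was 0.06 for Pdyn, 0.19 for Tac1, 0.37 for Slc35a1, 0.17 for Fra10ac1 and 0.24 for Arid4a. With limma it was 0.19 for Tac1, 0.08 for Slc35a1, 0.10 for Arid4a and 0.18 for Cyb5d1. Without the 3 nonescalating libraries that lie apart it was -0.32 for Cartpt, 0.02 for Arid4a and 0.19 for Cyb5d1. The cause was not tested. Limma, the setting without the 3 libraries, the fit of label-matched libraries alone and the 24 h alternatives were chosen after seeing the data. Depth and 4 escalating libraries limit genes under 4 CPM most.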
